A study of Mus musculus with 6 samples.

Results

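The 9 genes described here are the mouse alpha-1 antitrypsin paralogs *Serpina1a*, *Serpina1b*, *Serpina1c*, *Serpina1d* and *Serpina1e*, and the genes *Serpina3n*, *Saa3*, *Lcn2* and *Chil1*, out of 22032 genes in the expression matrix. They were chosen by name, because *Serpina1b* and *Chil1* stood far higher in adult than in embryonic cartilage, so their differences between stages are given as descriptions and without a test. RNA-seq was carried out on 3 embryonic and 3 adult mouse samples, which the labels place in knee cartilage. Embryonic cells came from E16.5 embryos (the labels write the number 16.5 with weeks as its unit) and adult cells from mice 2 months old. According to the methods, adult cells came from male B6 animals and were sorted as CD31-CD45-Ter119-ALP-BMPR1B+, and embryonic cells were sorted as lineage- and ALP-negative and BMPR1B-positive. No genetic change or treatment is given for either stage, and the sources used here give neither the embryonic strain and sex nor the number of animals behind a sample. The gate was set to remove CD45+ leukocytes, CD31+ endothelium and Ter119+ red cells, and it keeps cells that carry the receptor BMPR1B, so the samples stand for that fraction of cartilage cells and not for whole tissue.

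Alpha-1 antitrypsin is a secreted serine protease inhibitor, made mainly by the liver, that holds neutrophil elastase in check. It presents a flexible reactive centre loop as bait, and the protease that cuts the loop is trapped. Humans have a single gene for it, while the mouse carries several near-identical copies whose loops differ. *Serpina3n*, the mouse relative of human alpha-1 antichymotrypsin, inhibits proteases such as granzyme B. *Saa3* encodes a serum amyloid A made outside the liver, *Lcn2* encodes lipocalin 2, which binds iron-carrying siderophores, and *Chil1* encodes a chitinase-like protein (YKL-40 in humans) that binds chitin without cutting it and is abundant in cultured cartilage cells. All are known from inflammation, where interleukins 1 and 6 raise acute-phase genes through NF-kB, STAT3 and C/EBP factors.

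The 5 paralogs lie together on chromosome 12 of GRCm38, on the minus strand, and the copies are so alike that short reads can fit several of them. In the GENCODE M21 annotation *Serpina1b* spans chr12:103728156-103830373, *Serpina1d* chr12:103763594-103773592, *Serpina1a* chr12:103853589-103863562, *Serpina1c* chr12:103894926-103904887 and *Serpina1e* chr12:103946931-103958975. The GENCODE model of *Serpina1b* is 102.2 kb long and overlaps *Serpina1d*, whereas the RefSeq model is 10.0 kb long and ends at 103738189. Each paralog has a coding sequence of 1242 bases, and the 5 align without a gap. Of the 1242 columns 86 (6.92%) vary, and pairs are 96.3% to 98.5% identical, with *Serpina1a* and *Serpina1c* the closest at 19 differing positions. The variation is uneven: a stretch of 60 bases in exon 5 of 5, coding positions 1101 to 1160, holds 18 variable columns (30%), against a median of 4 over all such stretches. The reactive centre loop is encoded near the end of the coding sequence. The stretch is printed because it shows what tells the copies apart, with capitals at the columns that vary, in the coding sense:
Serpina1a, chr12:103853757-103853816: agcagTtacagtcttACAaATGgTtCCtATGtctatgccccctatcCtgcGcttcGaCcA
Serpina1b, chr12:103728324-103728383: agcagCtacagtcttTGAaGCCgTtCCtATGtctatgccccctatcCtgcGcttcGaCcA
Serpina1c, chr12:103895094-103895153: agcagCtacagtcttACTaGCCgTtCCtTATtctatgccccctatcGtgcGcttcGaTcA
Serpina1d, chr12:103763762-103763821: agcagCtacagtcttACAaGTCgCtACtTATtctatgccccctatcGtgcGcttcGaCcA
Serpina1e, chr12:103947100-103947159: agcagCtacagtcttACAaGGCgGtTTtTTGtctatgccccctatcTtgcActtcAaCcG

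No embryonic sample held any alpha-1 antitrypsin transcript in the table, and every adult sample held all 5. Levels are in TPM, a measure of transcript abundance that is scaled for transcript length within each sample and can therefore be compared between genes. All 15 embryonic values of the paralogs were listed at 0. *Serpina1b* stood at 121, 298 and 268 TPM in adult samples 1, 2 and 3 (229 ± 94.5, SD, n = 3). *Serpina1d* stood at 45.4, 30.6 and 38.1 TPM (38.0 ± 7.41), and *Serpina1e* at 20.4, 69.4 and 32.4 TPM (40.7 ± 25.5). The ranges of *Serpina1d* and *Serpina1e* overlap, while *Serpina1b* was above both in all 3 adult samples. *Serpina1a* stood at 17.0, 10.7 and 3.19 TPM (10.3 ± 6.91) and *Serpina1c* at 3.73, 2.46 and 6.02 TPM (4.07 ± 1.8). These lowest copies also overlap, and *Serpina1a* was the higher in samples 1 and 2 but not in sample 3. With embryonic values at 0 no fold change is given, and the matrix does not carry the read depth that would set a lower bound.

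Together the 5 copies reached 208, 411 and 347 TPM in the adult samples (322 ± 104, SD, n = 3). The sum does not depend on how reads are divided among the copies. *Serpina1b* made up 58.4%, 72.5% and 77.0% of it (69.3% ± 9.73), the largest share in each adult sample. *Serpina1d* held 21.8%, 7.43% and 11.0%, and *Serpina1e* 9.8%, 16.9% and 9.33%, so the order of these copies was turned in sample 2. *Serpina1a* held 8.17%, 2.6% and 0.919% and *Serpina1c* 1.8%, 0.598% and 1.73%. Adult sample 1, the lowest in *Serpina1b*, was the highest in *Serpina1a* and *Serpina1d*.

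**Figure D1:**
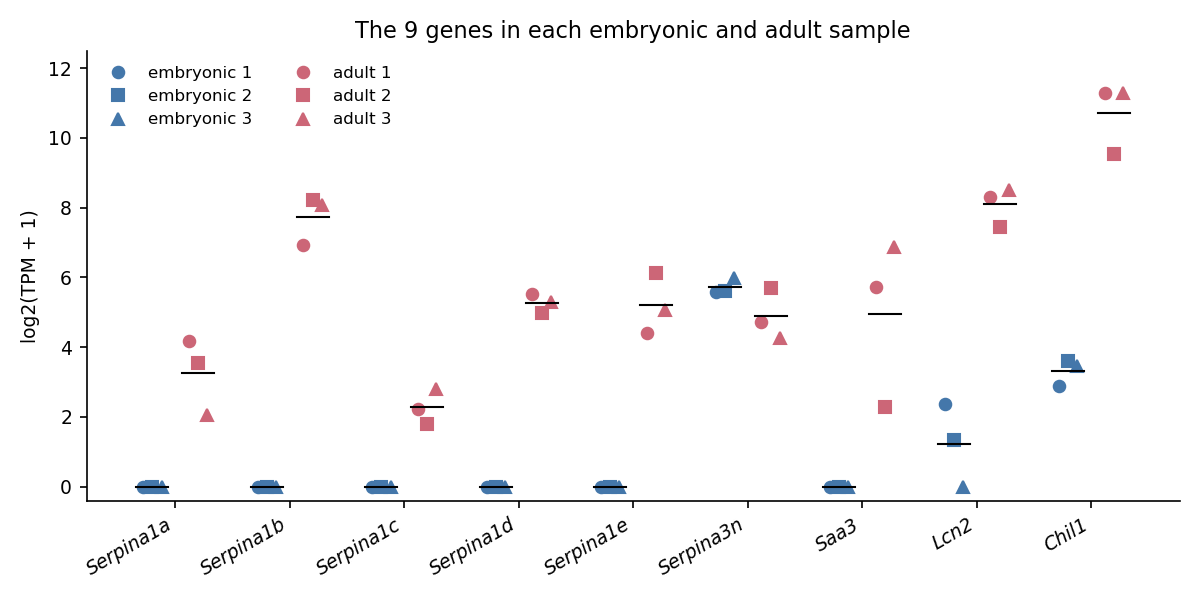
Level of each of the 9 genes as log2(TPM + 1) in the 3 embryonic (blue) and 3 adult (red) samples, one symbol per sample, with a bar at the mean of each stage. For 8 genes all adult points lie above all embryonic points, and the stages of Serpina3n overlap.

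**Figure D2:**
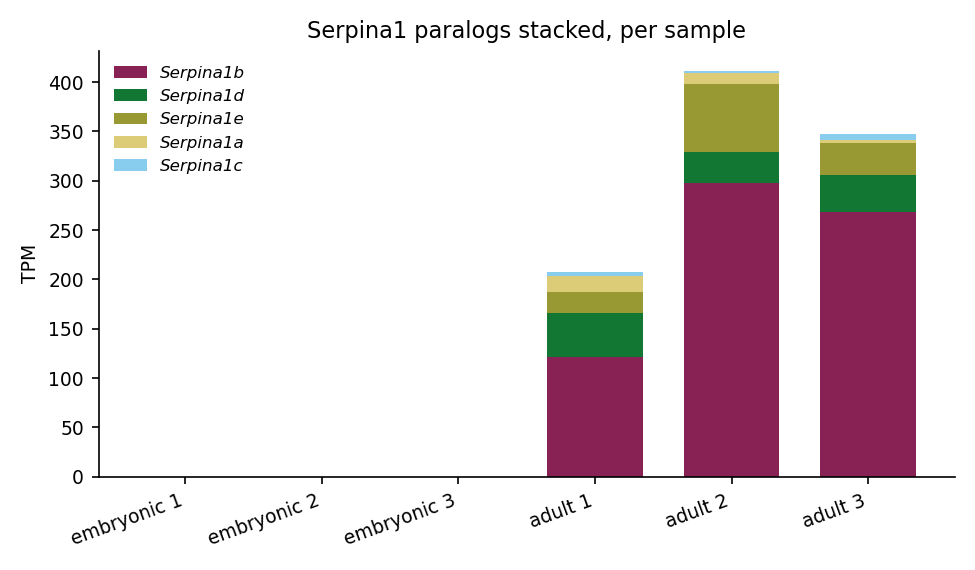
TPM of the 5 Serpina1 paralogs stacked for each of the 6 samples. The embryonic columns are empty and the adult columns reach 208, 411 and 347 TPM, most of it Serpina1b.

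How far each copy can be told from the others was measured on its transcript. Of the stretches of 50 bases along the *Serpina1e* transcript 62.1% occur in no other annotated gene, and the share was 52.9% for *Serpina1b* and 49.1% for *Serpina1d*. It was only 20.7% for *Serpina1c* and 19.1% for *Serpina1a*. The paralogs with the lowest levels are therefore also those whose sequence is shared most, and their values are the least certain of the 9. Outside the family the share was 93.1% for *Serpina3n*, 98.2% for *Saa3* and 100% for *Lcn2* and *Chil1*, whose levels do not rest on dividing reads between copies to any such degree.

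**Figure D3:**
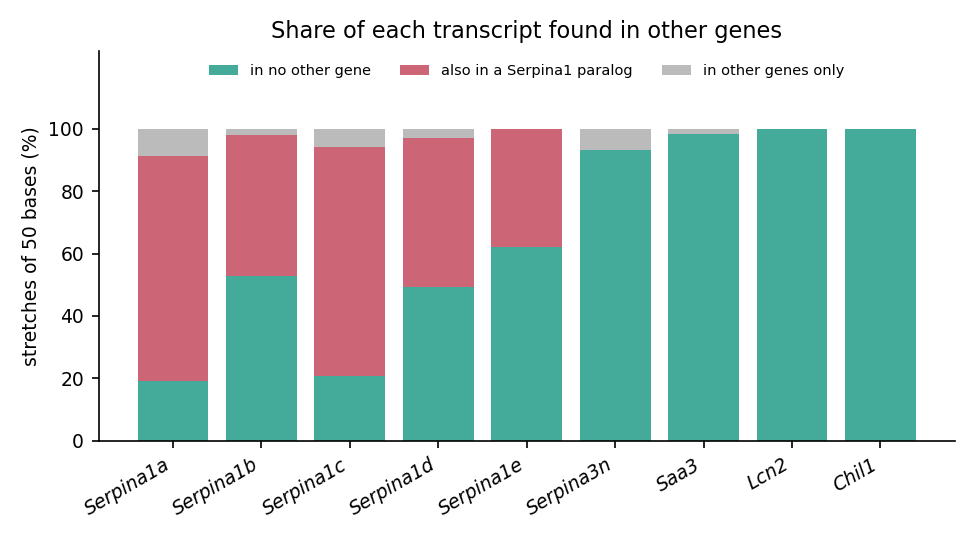
Percent of the stretches of 50 bases in one transcript of each gene that occur in no other gene (green), in another Serpina1 paralog (red) or in other genes only (grey). Serpina1a and Serpina1c have 19.1% and 20.7% in no other gene, against 93.1% or more for the 4 genes outside the family.

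The 250 bases before the RefSeq start of each gene (GRCm38.p6, all 9 genes matched) were searched on both strands for the letters of known motifs, and the matches of 5 of the motifs searched are given. *Serpina1a*, *Serpina1b*, *Serpina1c* and *Serpina1d* hold TGANTCA, the AP-1 letters, found in 6.75% of 32851 mouse promoter windows. The C/EBP letters TTNNGCAA, found in 9.56% of windows, occur in *Serpina1b*, *Serpina1d* and *Serpina1e*, in *Saa3* and in *Lcn2*. They do not occur in the windows of *Serpina1a*, *Serpina1c*, *Serpina3n* or *Chil1*. The C/EBP letters start 211 bases before the gene in *Serpina1e*, against 161 in *Serpina1b* and 149 in *Serpina1d*. The *Serpina1e* window thus ends before the place where the other paralogs hold the AP-1 letters, and that place was not searched. The NF-kB letters (GGGA, any 2 bases, T, any base, then CC, in 3.33% of windows), the STAT letters TTCNNNGAA (7.02%) and TATAAA (12.4%) occur in none of the 9. Over their aligned promoter bases, pairs of paralogs were 92.1% to 98.0% identical. *Serpina1b* and *Serpina1d* were 93.7% identical there, so the promoters also differ outside these letters. Windows of 40 bases around the C/EBP letters are shown, since the paralogs differ in whether they hold them, with the 8 letters in capitals and on the strand of the gene:
Serpina1b, chr12:103738327-103738366, minus strand: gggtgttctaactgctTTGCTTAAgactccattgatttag
Serpina1d, chr12:103773759-103773798, minus strand: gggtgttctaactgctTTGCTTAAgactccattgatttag
Serpina1e, chr12:103957085-103957124, minus strand: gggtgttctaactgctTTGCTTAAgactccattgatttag
Serpina1a, chr12:103863750-103863789, minus strand: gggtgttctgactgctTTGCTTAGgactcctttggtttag
Serpina1c, chr12:103905087-103905126, minus strand: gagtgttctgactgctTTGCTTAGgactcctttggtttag
Saa3, chr7:46715752-46715791, minus strand: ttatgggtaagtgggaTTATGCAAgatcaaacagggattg
Lcn2, chr2:32387932-32387971, minus strand: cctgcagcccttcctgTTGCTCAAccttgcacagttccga

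In the paralogs these letters start 149 to 211 bases before the gene. *Serpina1a* and *Serpina1c* carry the change A8G against *Serpina1b*, counted from 1 at the 5′ end of the 8 letters, and with it the motif is lost. The paralogs with the letters are the 3 with the highest median level in adult samples, and the paralogs without them are the lowest. They also part in the share of sequence found in no other gene (49.1% to 62.1% against 19.1% to 20.7%), so among 5 copies the levels, the promoter letters and how well reads can be assigned cannot be told apart. A match of letters describes the sequence and does not show binding.

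*Serpina3n* (chr12:104406729-104414329, plus strand) lies on the same chromosome and was the exception among the 9. It stood at 47.0, 48.0 and 62.6 TPM in embryonic samples 1, 2 and 3 and at 25.5, 51.0 and 18.2 TPM in adult samples 1, 2 and 3. Adult sample 2 reached into the embryonic range and the other adult samples were below it. The mean log2(TPM + 1) was 5.73 ± 0.23 in embryonic and 4.90 ± 0.73 in adult samples (SD, n = 3 each), a difference of -0.83. Its standard error of 0.34 came from the limma fit, which pools variance across genes, and does not follow from these SDs alone. Other genes of the same family branch, the clade A serpins, were almost silent. Of 20 listed relatives outside the 9, 17 were in the matrix and 8 were at 0 in all 6 samples. Only *Agt*, the angiotensinogen gene, averaged 1 TPM or more. *Agt* stood at 4.61, 10.4 and 9.91 TPM in embryonic and 7.65, 17.0 and 14.7 TPM in adult samples, a log2 difference of 0.60 (limma adjusted p = 0.271, above the threshold of 0.05).

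Chondrocyte identity and possible sources of liver RNA were checked on marker genes. The 10 markers of chondrocytes, among them *Col2a1*, *Acan* and *Sox9*, summed to 25097 to 26646 TPM in embryonic and 9778 to 12847 TPM in adult samples. Of these markers 2 were called higher in adult samples and 7 lower. Over all tested genes 23.9% were called higher and 21.4% lower. *Col2a1* stood at 14154 to 15251 TPM in embryonic and 3166 to 7084 TPM in adult samples. *Acan* stood at 1018 to 1306 and 1265 to 2672 TPM, *Sox9* at 392 to 465 and 589 to 901 TPM, and *Comp* at 553 to 606 and 1766 to 2662 TPM. The 12 hepatocyte genes summed to at most 4.57 TPM in any sample, and 8 of them, including the defining genes *Alb*, *Apob* and *Ttr*, were at 0 in all 6. The adult *Serpina1* level of 208 to 411 TPM stood beside albumin at 0. The 10 fibroblast markers summed to 10310 to 12046 TPM in embryonic and 655 to 1447 TPM in adult samples, with 0 called higher and 7 lower. Most of the embryonic sum was *Col1a1* (4862 to 5971 TPM) and *Col3a1* (4518 to 5122 TPM). The stages overlapped in *Pdgfra*, at 210 to 286 TPM in embryonic and 145 to 258 TPM in adult samples. The 6 osteoblast markers, whose ALP+ cells the gate was set to remove, summed to 31.0 to 66.2 and 286 to 440 TPM. Most of the adult osteoblast sum was *Ibsp* (235 to 316 TPM). Of the 6 osteoblast markers 3 were called higher in adult cells and 1 lower. *Bglap* read 26.8, 15.8 and 83.9 TPM across adult samples 1, 2 and 3, with every embryonic value at 0. *Alpl* ranged from 14.4 to 17.9 TPM before birth and from 32.7 to 38.6 TPM in adult cells. *Dmp1* instead stood at 10.1 to 16.3 TPM in embryonic and 0.0611 to 3.51 TPM in adult samples, and *Sp7* did not exceed 3.26 TPM. The part of either cell type in the members' differences was not tested. In these bulk samples a gene can be lower because fewer cells express it or because each cell holds less of its RNA, and these cannot be told apart.

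*Saa3* (chr7:46711998-46715700, minus strand) had no embryonic value above 0 and reached 51.6, 3.92 and 116 TPM in adult samples 1, 2 and 3 (57.3 ± 56.4, SD, n = 3). Its highest adult value was 29.7 times its lowest, the widest adult spread of the 9 genes. On the log2 scale that range was 4.58, and 0.35% of the 13125 genes tested (those averaging 1 TPM or more) had an adult range as large. The related liver genes followed the same order of low and high samples only in part. *Saa1*, likewise at 0 in each embryonic sample, reached 38.1, 1.55 and 16.5 TPM in adult samples 1, 2 and 3 (log2 difference 3.59, SE 0.884, limma adjusted p = 0.0104). *Saa2* reached 19.2 TPM in adult sample 1 and 0 in the other adult samples (adjusted p = 0.401), while *Saa4*, a form found in plasma without inflammation, stood at 1.86, 4.36 and 4.87 TPM (log2 difference 1.82, adjusted p = 0.0156).

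*Lcn2* (chr2:32384633-32388252, minus strand) stood at 4.13, 1.52 and 0 TPM in embryonic samples 1, 2 and 3 and at 318, 175 and 365 TPM in adult samples 1, 2 and 3. Adult sample 2 was the lowest of the adult samples and still far above every embryonic one. The mean log2(TPM + 1) was 1.23 ± 1.18 in embryonic and 8.10 ± 0.56 in adult samples (SD, n = 3 each), a difference of 6.87. Its standard error of 0.55 came from the limma fit with variance pooled across genes and not from these SDs alone. Transcripts of the lipocalin 2 receptors looked at, *Slc22a17* and *Lrp2*, were scarce in adult samples. *Slc22a17* stood at 14.7, 12.9 and 11.2 TPM in embryonic and 1.26, 3.68 and 1.96 TPM in adult samples, a fall of the opposite sign to its ligand gene (log2 difference -2.14, SE 0.404, limma adjusted p = 0.00293). *Lrp2*, which encodes megalin, did not exceed 0.201 TPM in any sample.

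*Chil1* (chr1:134182176-134190181, plus strand) was the highest of the 9 in every adult sample. It stood at 6.33, 11.1 and 10.1 TPM in embryonic samples 1, 2 and 3 and at 2508, 740 and 2519 TPM in adult samples 1, 2 and 3. The ratio of the stage means was 209. The mean log2(TPM + 1) was 3.32 ± 0.39 in embryonic and 10.71 ± 1.02 in adult samples (SD, n = 3 each), a difference of 7.39. Here too the standard error of 0.44 came from the limma fit with its pooled variance and not from these SDs alone. Among all 22032 genes it ranked 32, 142 and 29 in the adult samples against 9349, 7951 and 8402 in the embryonic samples. Adult sample 2 was again the low one, and the highest adult value was 3.4 times the lowest. Of the receptors proposed for the protein, *Cd44* fell (773, 859 and 844 TPM in embryonic and 317, 253 and 304 TPM in adult samples; log2 difference -1.51, SE 0.126, adjusted p = 3.8e-05). *Tmem219* stood at 11.5, 54.5 and 34.4 against 0.662, 18.8 and 19.1 TPM, with an adjusted p of 0.163, and *Il13ra2* did not exceed 4.56 TPM (adjusted p = 0.148).

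The chitinase family and the other lipocalins did not share this level. Of 22 listed genes 13 were at 0 in all 6 samples and 7 could be tested, of which 1 was higher in adult samples and none lower (5949 of all 13125 tested genes, 45.3%, were called, 23.9% higher and 21.4% lower, a split that turns under median-of-ratios scaling to 2613 higher and 3234 lower). That gene was *Ovgp1*, an oviductal relative of the chitinases, at 2.22, 3.59 and 3.14 TPM in embryonic and 6.27, 9.27 and 29.4 TPM in adult samples (log2 difference 1.74, SE 0.544, adjusted p = 0.029). The call was lost without adult replicate 3 or without any single embryonic replicate, with an adjusted p of up to 0.0938. *Chil3*, which myeloid cells express, stayed at 0 before birth and reached 7.83, 0 and 7.46 TPM in adult samples 1, 2 and 3 (adjusted p = 0.0695, with a lowest value of 0.0026 without adult replicate 2).

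In the adult samples the median levels ran from *Chil1* (2508 TPM) through *Lcn2* (318), *Serpina1b* (268), *Saa3* (51.6), *Serpina1d* (38.1), *Serpina1e* (32.4), *Serpina3n* (25.5) and *Serpina1a* (10.7) to *Serpina1c* (3.73). The ranges of *Chil1* and *Lcn2* do not overlap. *Lcn2* and *Serpina1b* do overlap, with *Lcn2* the higher in 2 of 3 samples. From *Saa3* down to *Serpina3n* each gene overlaps with its neighbour, as do *Serpina1a* and *Serpina1c*. The steps without overlap are those from *Chil1* to *Lcn2*, from *Serpina1b* to *Saa3* and from *Serpina3n* to *Serpina1a*. For 8 of the 9 genes all adult values were above all embryonic values, which held for 30.7% of the 13125 tested genes, and for 6 of them the embryonic values were at 0 in all samples and the adult values above 0 in all, which held for 0.434%. *Serpina1b*, *Serpina1d* and *Serpina1e* were among only 8 genes (0.061%) at 0 in every embryonic sample and above 20 TPM in every adult sample. The other 5, named after their values were seen, were *Gstp2*, *Hhipl2*, *Dmkn*, *AW112010* and *2210408F21Rik*. Since these stages chose the genes, the counts are descriptions.

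The genes whose pattern over the 6 samples was nearest to *Serpina1b*, by the root mean square difference of log2(TPM + 1) after centring each gene, were *Prg4* (0.46), *Cilp* (0.54) and *Nos2* (0.59). *Prg4*, which encodes the joint lubricant lubricin, stood at 123, 194 and 162 TPM in embryonic and 23818, 26392 and 25593 TPM in adult samples. *Cilp*, a cartilage matrix gene, stood at 29.1 to 40.0 and 3779 to 5526 TPM. *Nos2*, the inducible nitric oxide synthase, stood at 0, 0 and 0.392 TPM against 124, 147 and 123 TPM. For *Chil1* the nearest genes were *Gstp2* (0.61), *Prg4* (0.62) and *Htra4* (0.72). *Gstp2*, a glutathione transferase, was at 137, 48.1 and 87.7 TPM and *Htra4*, a serine protease, at 1849, 1045 and 1443 TPM in adult samples 1, 2 and 3, so in both, as in *Chil1*, adult sample 2 was the lowest. *Prg4*, near to both members, was instead highest in adult sample 2, as was *Serpina1b*. Nearness over the 6 samples thus does not mean the same order among the adult samples.

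The adult samples did not agree on all members. *Saa3*, *Lcn2* and *Chil1* were lowest in adult sample 2, with means of samples 1 and 3 that were 21.4, 1.95 and 3.4 times its value. *Saa3* and *Chil1* were lower there than in both other samples by at least 1 on the log2 scale, as were 3.01% of tested genes. *Serpina1c* and *Serpina1d* were also lowest in adult sample 2, at 2.46 and 30.6 TPM. *Serpina1b*, *Serpina1e* and *Serpina3n* were instead highest in adult sample 2. Transcripts of blood cells differed among the same samples. The 10 neutrophil markers summed to 196, 7.98 and 76.8 TPM in adult samples 1, 2 and 3, and to 1.07 to 1.99 TPM in embryonic samples, where 9 of the 10 were at 0 in each sample. Across the same adult samples *S100a8* read 36.4, 0 and 41.5 TPM, *S100a9* 78.4, 0 and 32.4 TPM, *Ltf* 44.5, 0 and 0 TPM and *Mpo* 1.92, 0 and 0 TPM. Of the 10 markers 1 was at 0 in adult sample 1, 6 in sample 2 and 5 in sample 3. Of the 7 that could be tested 2 were called higher in adult samples and 0 lower (23.9% and 21.4% over all tested genes). The 10 macrophage markers summed to 88.2, 20.6 and 48.0 TPM in adult and 7.98 to 15 TPM in embryonic samples. Of 4 tested macrophage markers 2 were called higher in adult samples (23.9% over all tested genes). Among the 10, *Cd68* read 33.3, 17.2 and 27.5 TPM, *Lyz2* 30.7, 0.706 and 8.14 TPM and *Itgam* 18.2, 1.37 and 12.1 TPM in the adult samples, against at most 12.6, 1.08 and 1.04 TPM in embryonic samples. The defining gene *Adgre1* did not exceed 0.162 TPM, and *Cd163* and *C1qa* were at 0 in all 6. *Ptprc*, which encodes the CD45 used in the gate, read 2.29, 0 and 1.03 TPM in adult samples 1, 2 and 3. In adult sample 2 *S100a8*, *S100a9*, *Ltf* and *Ptprc* were at 0, while *Camp* read 3.64, *Cxcr2* 2.44, *Ngp* 1.32 and *Elane* 0.592 TPM. In adult sample 3 *Camp*, *Cxcr2*, *Ngp* and *Elane* read 0, 0.173, 0.625 and 0 TPM. *Chil1* stood at 740, *Lcn2* at 175, *Serpina1b* at 298 and *Saa3* at 3.92 TPM in adult sample 2. The part of myeloid transcripts in the *Saa3* values and in the differences between adult samples was not tested.

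**Figure D4:**
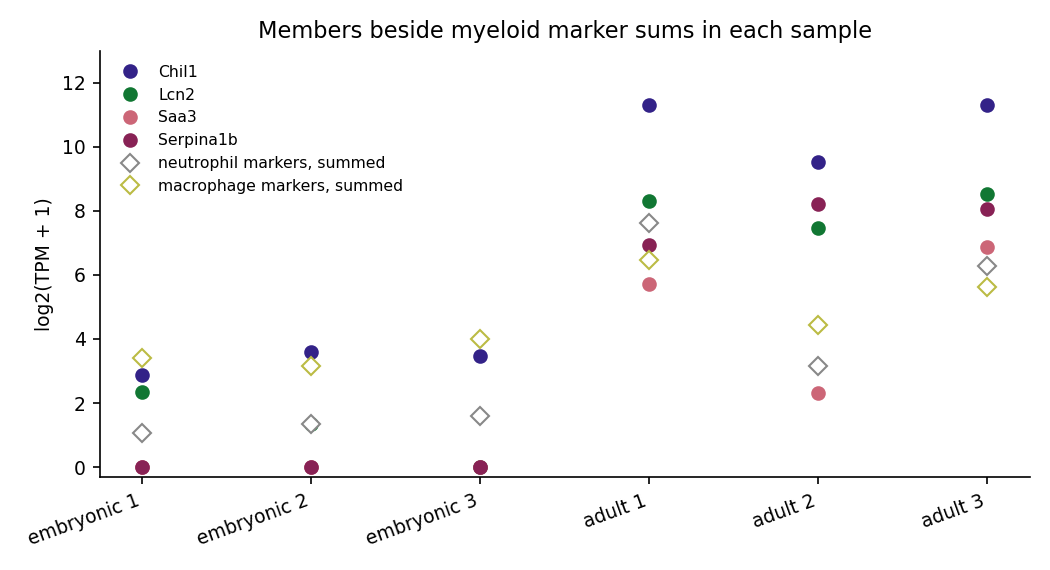
Log2(TPM + 1) of Chil1, Lcn2, Saa3 and Serpina1b (filled circles) and of the summed neutrophil and macrophage markers (open diamonds) in each of the 6 samples. Chil1, Lcn2, Saa3 and both marker sums are lowest among the adult samples in adult 2, where Serpina1b is highest. In the embryonic samples Saa3 and Serpina1b share the points at 0.

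Many genes of a list drawn up for the acute phase of plasma were higher in adult cartilage cells. The list is mixed. It also holds *Saa4*, the metallothionein genes *Mt1* and *Mt2*, and genes such as *Alb* and *Rbp4*, whose plasma proteins fall in inflammation. *Rbp4* was among the genes called higher (log2 difference 2.31, limma adjusted p = 0.0025), as were *Saa4*, *Mt1* and *Mt2*. Of 39 listed genes outside the 9, 10 were at 0 in all samples and 20 could be tested, of which 12 were higher (23.9% over all tested genes), 1 lower (21.4% over all) and 7 did not pass the threshold. Their median log2 difference was 1.5, against 0.16 over all tested genes. Like the other gene lists, this one was chosen with earlier results of these data known, so its counts and median are descriptions. *Cd14*, a co-receptor for bacterial lipopolysaccharide, stood at 1.18, 6.89 and 6.12 TPM in embryonic and 357, 458 and 364 TPM in adult samples (log2 difference 6.30, SE 0.439, limma adjusted p = 1.4e-05). *Cp*, the copper-carrying ferroxidase ceruloplasmin, rose by 6.16 (SE 0.296, adjusted p = 1.7e-06), *Lbp*, the lipopolysaccharide binding protein, by 6.0 (SE 0.378, adjusted p = 8.2e-06) and the complement gene *C3* by 5.30 (SE 0.336, adjusted p = 8.5e-06). Adult values ran from 274 to 394 TPM for *Cp*, 228 to 414 for *Lbp* and 49.7 to 55.3 for *C3*. The single gene that fell was *Ptx3*, a long pentraxin that activates complement, from 78.4, 84.5 and 99.7 TPM to 0.717, 1.39 and 2.78 TPM (log2 difference -5.14, SE 0.342, adjusted p = 1.1e-05). *Hp*, which encodes haptoglobin, did not exceed 7.31 TPM (adjusted p = 0.578), and *Crp*, a short pentraxin, was listed above 0 in 1 embryonic sample only, at 1.64 TPM.

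Among genes that regulate the acute phase, some were higher and some lower in adult cells. Of 38 listed genes 37 were in the matrix and 31 could be tested, of which 12 (38.7%) were higher, 7 (22.6%) lower and 12 did not pass, against 23.9% higher and 21.4% lower over all tested genes. The share that was lower is near that background, and median-of-ratios scaling gave 9 higher and 9 lower. *Tlr4*, the lipopolysaccharide receptor, rose most, from 9.87, 8.3 and 12.7 TPM to 59.8, 82.0 and 106 TPM (log2 difference 2.87, SE 0.266, adjusted p = 6.6e-05), followed by the kinase *Tyk2* (2.31, adjusted p = 0.00277). *Cebpb*, whose protein binds the C/EBP letters, stood at 209, 220 and 193 TPM in embryonic and 538, 504 and 505 TPM in adult samples (1.31, SE 0.113, adjusted p = 4.4e-05), and *Il6st*, the shared receptor subunit of the interleukin 6 family, rose by 1.19 (SE 0.112, adjusted p = 7.2e-05). *Il11*, a cytokine of that family, fell from 32.1, 49.5 and 60.4 TPM to 3.26, 2.4 and 1.1 TPM (-3.91, adjusted p = 8.9e-05).

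*Il1r1*, the signalling receptor of interleukin 1, fell by 2.27 (SE 0.174, adjusted p = 2.4e-05), the cytokine gene *Lif* fell by 1.48 (adjusted p = 0.00905), *Stat3* by 1.28 (SE 0.129, adjusted p = 0.0001) and *Nfkbiz*, a nuclear partner of NF-kB, by 0.88 (adjusted p = 0.0014). Interleukin 6 transcript was present at both stages, at 19.4, 19.6 and 29.3 TPM in embryonic and 13.2, 17.7 and 64.2 TPM in adult samples, with a log2 difference of 0.15 (adjusted p = 0.831). *Socs3*, which interleukin 6 signalling is known to induce, had stage means of log2(TPM + 1) of 5.42 ± 0.34 and 5.59 ± 0.10 (difference 0.17, adjusted p = 0.537). *Il1b* was listed in adult sample 1 only, at 6.75 TPM (adjusted p = 0.351). *Hnf4a*, which encodes a transcription factor of hepatocytes, was at 0 in all 6 samples.

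**Figure D5:**
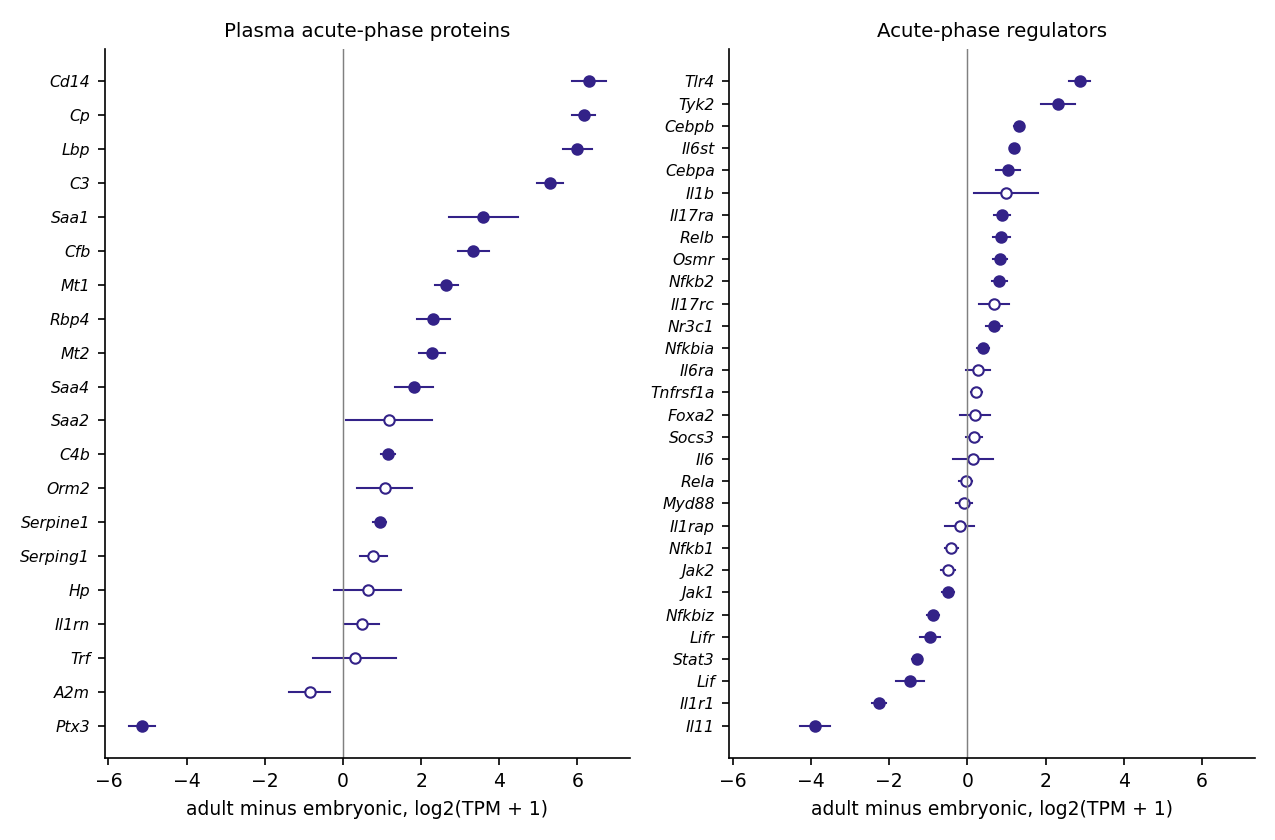
Adult minus embryonic difference of log2(TPM + 1) for the 20 tested plasma acute-phase genes (left) and 30 of the 31 tested regulators (right), with 1 standard error on each side; filled points passed an adjusted p of 0.05. Plasma genes run from Ptx3 at -5.14 to Cd14 at 6.30, and regulators from Il11 at -3.91 to Tlr4 at 2.87.

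The neutrophil serine proteases were barely detected. *Elane*, the neutrophil elastase, did not exceed 0.592 TPM, *Ctsg* was listed in adult sample 1 only at 1.39 TPM, and *Prtn3* was at 0 in all 6 samples. Another listed serine protease, *Klk8*, stood at 13.6, 10.6 and 16.2 TPM in embryonic and 18.1, 22.1 and 12.8 TPM in adult samples and did not pass the test. Of 28 listed proteases and receptors of the members' proteins, 14 were at 0 in all samples and 9 could be tested, of which 2 (22.2%) were higher, 3 (33.3%) lower and 4 did not pass, near the 23.9% and 21.4% over all tested genes. *Lrp1*, the receptor that clears complexes of serine protease inhibitors with proteases, stood at 272, 187 and 226 TPM in embryonic and 896, 892 and 911 TPM in adult samples (log2 difference 1.99, SE 0.147, limma adjusted p = 1.9e-05). *Tlr2*, a proposed receptor for serum amyloid A, rose from 35.2, 39.8 and 35.1 TPM to 177, 233 and 244 TPM (2.53, SE 0.165, adjusted p = 1e-05), and *Scarb1*, a scavenger receptor that also takes up serum amyloid A, fell by 0.61 (adjusted p = 0.0142, and 0.0525 without embryonic replicate 2).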

How the data were processed

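Levels were measured by RNA-seq in 3 embryonic and 3 adult samples. The values deposited by the authors are log2(TPM + 1) per gene, from RSEM on reads aligned to GRCm38. The RSEM version is not given in the sources used here. TPM keeps no read depth, so precision rests on the spread between 3 samples, which may be technical. Taken back to the linear scale, the 6 samples have the same total. Over all genes, 6 values of 0 stood beside 2 samples of the same stage at 20 TPM or more, and a listed 0 is therefore no proof of absence.

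Symbols (21902 of 22032 identifiers) and positions came from GENCODE M21, and promoter windows from RefSeq. The motif letters and the 50-base stretches were searched in Python 3.11.15 with pandas 2.3.3, numpy 2.4.6 and Biopython 1.88, coding sequences were aligned with MAFFT 7.526, and plots used matplotlib 3.10.9.

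Stages were compared with limma 3.58.1 in R 4.3.3 (lmFit, eBayes with trend, two-sided) on log2 values (pseudocount 1). The 13125 genes averaging 1 TPM or more entered, with p-values Benjamini-Hochberg adjusted over all of them at 0.05. EBSeq, named in the methods, needs counts. Some genes of the lists are counted but not reported by name here. The 9 genes and the 5 other gene lists were chosen with earlier results of these data known. Named from each list were the 4 genes with the largest change in each direction past the threshold, with inducers, receptors and targets of the 9 whatever their result. On simulated data for this comparison, the test called 73 of 200 changed genes among 13125, each in the correct direction, and 2 unchanged ones. Of 104 changed by 2 on the log2 scale, 54 were called. In the real data 5949 genes were called, far more than were changed in the simulation. The adjustment depends on how many genes change, so these shares do not give the sensitivity of the real comparison. Alternatives were another pseudocount, filter, scaling, eBayes setting or threshold, the replicate number as a block, and each sample left out.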

Additional observations from a re-analysis of the deposited data

How the results depend on the processing

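With 3 samples per stage and no read depth, small differences and values near 0 carry little weight. No member difference or count turned direction under the alternatives, while *Saa2*, *Hp*, *Il6* and *Socs3*, which did not pass the threshold, changed sign under at least 1. At an adjusted p under 0.01, 3718 genes were called instead of 5949, 12 regulators instead of 19, and 0 chitinase and lipocalin genes instead of 1; that count was also 0 with no filter on low values. Median-of-ratios scaling moved the median log2 difference of all tested genes from 0.16 to 0.03 and gave 2613 genes higher and 3234 lower in adult samples, where the fit reported had 3140 and 2809, and rescaling without the 20 highest genes gave 3509 and 2526. The *Lcn2* difference was 8.27 with a pseudocount of 0.1, which widens differences from values near 0.

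Leaving out each sample in turn gave 4603 to 5550 genes called, 13 to 14 plasma acute-phase genes, 13 to 17 regulators, 4 to 5 proteases and receptors, 0 to 2 chitinase and lipocalin genes (2 without adult replicate 2, and 0 without adult replicate 3 or any embryonic replicate) and 0 clade A serpins. The count of members with all adult values higher stayed at 8, the mean adult sum of the *Serpina1* paralogs ran from 278 to 379 TPM, and the differences were 7.1 to 7.98 for *Chil1*, 6.25 to 7.43 for *Lcn2* and -1.24 to -0.52 for *Serpina3n*. *Cebpa*, *Jak1*, *Lifr*, *Nfkbia*, *Nr3c1*, *Ovgp1* and *Scarb1* were among the genes called in the fit reported and not under some alternatives.

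Samples with the same replicate number did not deviate together (correlations of -0.00884, -0.0169 and -0.0223 over 13125 genes), so the numbers name samples and do not pair them. With the replicate block, 5430 genes were called in all, with 14 plasma genes, 17 regulators, 6 proteases and receptors, 1 chitinase or lipocalin gene and 0 clade A serpins, and *Tmem219* passed (adjusted p = 0.014).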
